A study of Mus musculus with 20 samples.

Results

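The 10 genes described here encode enzymes that modify collagen: the 3 catalytic subunits of collagen prolyl 4-hydroxylase (P4ha1, P4ha2 and P4ha3), the 3 lysyl hydroxylases (Plod1, Plod2 and Plod3), and lysyl oxidase with 3 of its relatives (Lox, Loxl1, Loxl2 and Loxl3). They were chosen by name. Each symbol matched 1 gene ID among the 63318 genes of the count table, and each passed the filter on low counts that left 19741 genes for testing. The study measured poly(A) RNA of mouse heart by short-read sequencing in 4 groups of 4 libraries; according to its title it was concerned with splicing after infarction. The MI group was taken 72 h after surgery for myocardial infarction, from the core of the infarct together with its periphery, and the MISham group was its sham-operated control from the same regions. The IR group had 40 min of "LCA", which the labels do not spell out, followed by 72 h of reperfusion, and was taken from the infarct core alone; IRSham was its own sham-operated control. Kind of injury and region sampled therefore cannot be told apart. No strain, age, sex, genotype or drug is given in the labels, and they do not say whether the libraries of a group came from separate animals, so each p-value here measures only how these libraries spread, which may be technical.

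Collagen is modified in steps. Inside the endoplasmic reticulum, prolyl 4-hydroxylases convert proline to 4-hydroxyproline, which keeps the triple helix stable at body temperature, and lysyl hydroxylases make hydroxylysine, a site of sugar attachment and of cross-links. Outside the cell, lysyl oxidases oxidise lysine and hydroxylysine side chains, which then react to form the covalent cross-links of collagen and elastic fibres. In the injured heart these enzymes belong to the making of scar, and fibroblasts are known as their main source, although other cells make them too.

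Library totals ran from 24273984 to 31832969 counts in MISham, IRSham and IR and from 57215382 to 63070805 counts in MI. Depth thus differs with the group, and thinning the MI counts to the MISham mean left the number of these 10 genes called the same in every comparison. All 7 cardiomyocyte markers fell in both injuries by edgeR's test, from a summed level of 64010 to 76960 CPM (counts scaled to the library's effective total) in MISham to 12080 to 22080 in MI and from 69770 to 74720 in IRSham to 13640 to 27130 in IR. Of 6 markers of activated fibroblasts 6 rose in MI and 4 in IR, of 7 markers of resident fibroblasts 2 rose and 4 fell in MI and 3 rose and 3 fell in IR, and of 6 macrophage markers 6 rose in MI and 5 in IR; no marker of these lists was at 0 in any group. The summed activated fibroblast markers ran from 130 to 344.3 CPM in MISham, 1845 to 2152 in MI, 473.3 to 699.2 in IRSham and 1909 to 3131 in IR. The part of this change of cell makeup in the results below was not tested. In bulk tissue a change in the number of cells of a type and a change in RNA per cell cannot be told apart.

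MISham replicates 1 and 3 stood apart from replicates 2 and 4. The mean log2 CPM of the 10 genes was 5.40 and 5.75 in replicates 1 and 3 against 4.50 and 4.73 in replicates 2 and 4. Activated fibroblast markers lay at 3.55 and 4.24 against 2.63 and 3.31, and macrophage markers at 6.29 and 5.89 against 4.91 and 5.13. The fold changes of the 10 genes in MI, their family shares, collagen ratios and exon shares are therefore also given without that pair; the pair was left out with its values known, so these values and calls are a description. Of the partner genes described further on, 30 of 34 were called in MI without the pair, against 31 with it, and their single values are not given without it.

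After MI, 9 of the 10 genes rose and none fell by edgeR's quasi-likelihood test with Benjamini-Hochberg adjustment over all genes (adjusted p under 0.05), where 34.8% of all tested genes rose and 30.2% fell (64.9% in either direction). After IR 8 rose and none fell, against 29.5% and 28.2% of all genes (57.7% in either direction). With library size alone in place of TMM scaling, 10 rose in MI and 9 in IR. The higher share of all calls then went from 53.5% to 68.6% in MI and from 51.1% to 69.1% in IR. That is a share of called genes, and the share of all tested genes that rose with this scaling is not given here. The median log2 fold change of the 10 was 1.84 in MI and 1.49 in IR, beside 0.08 and 0.03 over all tested genes. P4ha3, Loxl3 and Lox had the largest changes of the 10 in both injuries, and ranked 68, 153 and 236 of 19741 genes by log2 fold change in MI and 91, 199 and 268 in IR. P4ha2 was the gene of the 10 with no call in either injury. Without MISham replicates 1 and 3 the MI fold change was larger for each of the 10 genes, and all 10 were called (31.7% of all genes tested in that fit rose). P4ha1 then had 1.46, Plod1 0.76, Plod2 1.10, Plod3 2.02, Loxl1 2.49 and Loxl3 4.35 on the log2 scale, and the other 4 are given with the gene. Every MI library lay above every MISham library for 9 genes (34.1% of all genes did so, and 28.6% lay below). Every IR library lay above every IRSham library for 8 (26.1% of all genes, with 25.4% below).

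**Figure D1:**
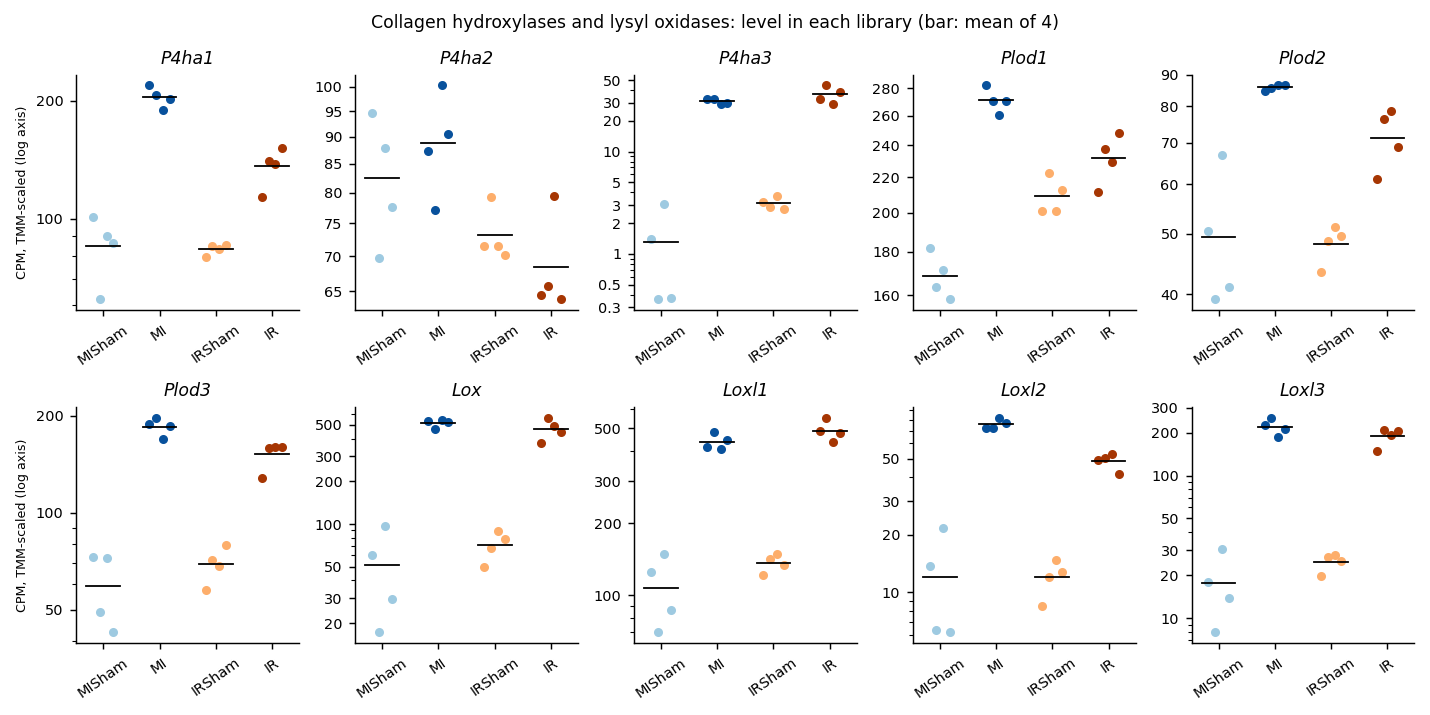
Level of each gene in each library, in TMM-scaled CPM on a log axis, with points for the 4 libraries of each group in order of replicate number and a bar at their mean. Injured libraries lie above their shams for 9 genes in MI and 8 in IR, while the P4ha2 groups overlap. MISham replicates 1 and 3 (points 1 and 3 of that group) lie above replicates 2 and 4 for every gene shown.

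**Figure D2:**
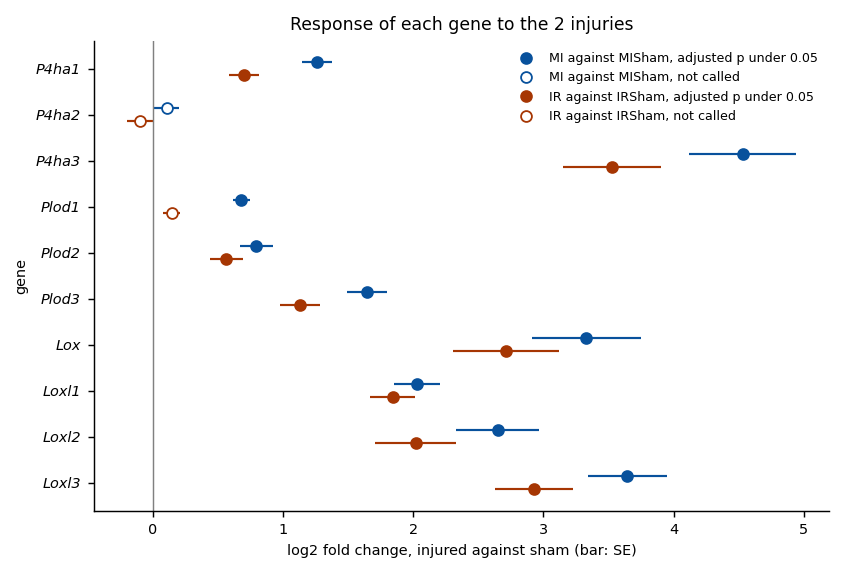
Log2 fold change of each gene, MI against MISham in blue and IR against IRSham in brown, with the standard error as a bar; filled points had an adjusted p under 0.05 by edgeR. P4ha3 is farthest to the right at 4.53 and 3.53, and P4ha2 lies at 0.11 and -0.10.

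P4ha3 encodes the catalytic subunit that was scarcest of the 3 in sham hearts. Its level was 1.40, 0.36, 3.07 and 0.37 CPM in MISham replicates 1 to 4 and 32.5, 32.5, 29.4 and 29.8 CPM in MI. In IRSham it was 3.18, 2.90, 3.71 and 2.78 CPM, and in IR 33.0, 44.6, 29.2 and 38.4 CPM. The injured libraries of both kinds lay far above all 8 sham libraries. The rise was 4.53 ± 0.41 on the log2 scale in MI (SE; edgeR adjusted p = 2.05e-07; 23.1-fold) and 3.53 ± 0.37 in IR (adjusted p = 1.7e-06; 11.5-fold). The size of the MI rise depends on the sham libraries: it was 5.40 without MISham replicate 3 and 6.40 without MISham replicates 1 and 3. P4ha3-201, its main coding transcript, held 99.2% ± 1.59 (SD, n = 4) of the annotated TPM (the deposited level per transcript length) of the gene in MISham, 85.9% ± 2.78 in MI, 86.1% ± 18.3 in IRSham and 87.9% ± 4.64 in IR. The sham shares rest on a mean of 0.425 TPM for the gene in MISham and 1.12 in IRSham, near the floor. It met the minimum of 5 TPM for share tests only through the injured groups (16.5 TPM in MI and 19.1 in IR).

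P4ha1, the catalytic subunit of the most widespread form of the enzyme, rose in both injuries. It stood at 101, 62.2, 90.2 and 86.4 CPM in MISham, 218.8, 206.4, 189.1 and 201.3 in MI, 79.9, 85.04, 83.4 and 85.8 in IRSham and 113.3, 140.5, 138 and 151.5 in IR. All MI libraries lay above all IR libraries, and all IR libraries above all sham libraries. The log2 fold change was 1.26 ± 0.12 in MI (edgeR adjusted p = 5.52e-08) and 0.70 ± 0.12 in IR (adjusted p = 4.85e-05). The difference of these responses, 0.56 ± 0.16, did not pass (adjusted p = 0.128) with all libraries.

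P4ha2 encodes the subunit of the second form of the enzyme, known from cartilage and bone-forming tissue. Its level was 94.7, 69.7, 87.8 and 77.6 CPM in MISham and 87.3, 77.1, 100.3 and 90.6 CPM in MI. It was 71.5, 79.3, 71.5 and 70.2 CPM in IRSham and 64.5, 65.8, 79.5 and 63.9 CPM in IR. Injured and sham libraries overlapped in both comparisons. The log2 fold change was 0.11 ± 0.10 in MI (edgeR adjusted p = 0.362) and -0.10 ± 0.10 in IR (adjusted p = 0.431). These values depend on the scaling: with library size alone, which moved the median of all genes from 0.08 to 0.39 in MI and from 0.03 to 0.32 in IR, P4ha2 had 0.41 in MI (adjusted p = 0.00136) and 0.20 in IR (adjusted p = 0.101, the lowest of its alternatives, which reached 0.699). Without MISham replicates 1 and 3 it had 0.27 in MI (adjusted p = 0.0395); over all alternatives its adjusted p in MI ran from 0.00136 to 0.778.

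Within P4ha2, the makeup of its transcripts changed, while the gene's count was not called with TMM scaling and all libraries. P4ha2-202, a coding transcript, held 11.8%, 16.4%, 12.6% and 21.2% of the annotated TPM of P4ha2 in MISham and 51.2%, 38.9%, 41.5% and 48.6% in MI. In IRSham it held 9.71%, 15.6%, 27.5% and 7.53%, and in IR 36.0%, 33.7%, 28.1% and 46.5%. The lowest injured library of each kind lay above the highest library of its sham group, by a small margin in IR. The share rose by 29.55 ± 4.80 percentage points in MI (limma adjusted p = 0.00205 over 25606 transcripts) and by 20.96 ± 4.80 in IR (adjusted p = 0.0234). It was the 1 transcript called among the 24 tested from 7 of these genes, where 5.73% of all transcripts tested were called in MI and 3.59% in IR. The median size of the change over the 24 was 3.28 points in MI and 3.03 in IR, beside 4.13 and 3.99 over all transcripts tested. The 24 include P4ha3-201 and P4ha3-202, whose sham shares rest on levels near the floor. Without MISham replicates 1 and 3 the MI change was 26.26 points (adjusted p = 0.0256). The 2 injuries differed in the P4ha2-202 change by 8.59 ± 6.80 points (adjusted p = 0.82), and 0 of all transcripts tested were called for that difference. The IR call was lost without IRSham replicate 1 (adjusted p = 0.0691), IRSham replicate 4 (0.0673), IR replicate 2 (0.0509) or IR replicate 4 (0.0703). Over all alternatives the adjusted p ran from 0.0102 to 0.0703 in IR and from 0.00113 to 0.0256 in MI.

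The TPM of P4ha2-202 rose from 5.74 ± 1.18 in MISham to 25.6 ± 3.55 in MI and from 5.44 ± 3.50 in IRSham to 16.6 ± 2.62 in IR (SD, n = 4; on the log2(TPM + 1) scale 1.98 ± 0.27, limma adjusted p = 1.64e-05, and 1.58 ± 0.27, adjusted p = 0.000198). P4ha2-201, the other main coding transcript, stood at 11.9 ± 1.74 TPM in MISham, 12.3 ± 1.91 in MI, 10.3 ± 1.23 in IRSham and 10.0 ± 4.27 in IR, and was not called on that scale (adjusted p = 0.897 and 0.712). On that scale 47.1% of all transcripts tested were called higher in MI and 40.1% in IR, and 7.82% and 7.44% lower. The summed TPM of P4ha2 was also higher in injury, with 38.0 ± 6.52 in MISham, 56.8 ± 3.11 in MI, 35.6 ± 2.16 in IRSham and 46.8 ± 7.88 in IR (SD, n = 4); TPM is not TMM-scaled.

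**Figure D3:**
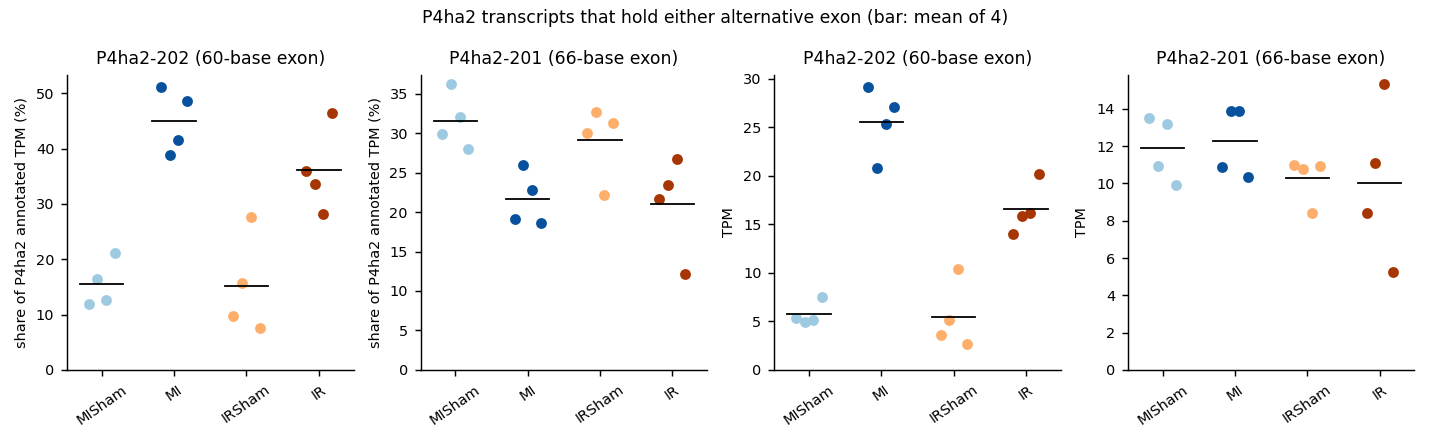
Share of the annotated TPM of P4ha2 (left pair) and TPM (right pair) of P4ha2-202 and P4ha2-201 in each library, with a bar at the mean of 4. P4ha2-202 goes from a mean of 15.5% in MISham to 45.0% in MI and from 15.1% in IRSham to 36.1% in IR, while the TPM of P4ha2-201 stays between group means of 10.0 and 12.3.

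P4ha2-201 and P4ha2-202 share 13 coding exons and differ in their coding sequence by 1 exon each, of 66 and of 60 bases, both a whole number of codons (22 and 20). P4ha1 has a comparable pair of 71 bases each, in P4ha1-201 and P4ha1-203, and Plod2 an exon of 63 bases that Plod2-203 holds and Plod2-201 lacks. These alternative exons are shown because they set the coding sequences of the transcripts apart. The transcripts also differ outside the coding sequence: P4ha1-201 and P4ha1-203 have 4043 and 2918 bases, with 1602 coding bases each. The part of such noncoding differences in the TPM of these transcripts, and so in the exon shares below, was not tested. The exons are copied from GENCODE M21 transcripts (GRCm38, all on the plus strand). Capitals mark the exon, with 15 shared bases on each side in lower case. Transcript lengths in GENCODE M21 equal those in the deposited table for the 8 transcripts compared, although the deposited data use GRCm39.
P4ha2 60-base exon, in P4ha2-202, chr11:54126238-54126297: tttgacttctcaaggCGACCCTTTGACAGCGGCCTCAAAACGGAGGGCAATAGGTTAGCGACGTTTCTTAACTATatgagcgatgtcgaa
P4ha2 66-base exon, in P4ha2-201, chr11:54126346-54126411: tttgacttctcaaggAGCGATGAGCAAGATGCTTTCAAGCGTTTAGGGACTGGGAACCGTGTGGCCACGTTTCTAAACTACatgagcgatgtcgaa
P4ha1 first 71-base exon, in P4ha1-201, chr10:59354340-59354410: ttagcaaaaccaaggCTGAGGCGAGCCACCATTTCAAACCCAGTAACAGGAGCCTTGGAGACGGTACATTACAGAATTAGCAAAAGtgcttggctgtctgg
P4ha1 second 71-base exon, in P4ha1-203, chr10:59355350-59355420: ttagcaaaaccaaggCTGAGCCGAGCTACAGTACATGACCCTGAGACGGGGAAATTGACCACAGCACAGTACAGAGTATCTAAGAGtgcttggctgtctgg
Plod2 63-base exon, in Plod2-203, chr9:92601985-92602047: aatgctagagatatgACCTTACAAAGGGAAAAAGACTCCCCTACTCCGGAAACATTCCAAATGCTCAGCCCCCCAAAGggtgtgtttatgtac

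In each pair the exons lie one after the other on the chromosome, the 60-base before the 66-base exon of P4ha2. In a global alignment the P4ha2 exons shared 41 of 72 columns (56.9%) and the P4ha1 exons 47 of 73 (64.4%).

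TPM summed over the coding transcripts that hold each exon gave the exon's share, a measure added after the transcript values were seen. The P4ha2 60-base exon held 40.1%, 31.1%, 44.6% and 43.1% of the pair in MISham and 73.8%, 64%, 69.5% and 74.7% in MI, with no overlap. It held 42.0%, 44.8%, 55.4% and 43.9% in IRSham and 68.1%, 67.7%, 54.4% and 80.8% in IR, where IR replicate 3 lay below IRSham replicate 3. The means were 70.5% ± 4.89 against 39.7% ± 6.03 in MI (SD, n = 4; two-sided exact permutation p = 0.0286, adjusted p = 0.0857 over 6 tests) and 67.7% ± 10.8 against 46.5% ± 6.01 in IR (exact p = 0.0571; adjusted p = 0.114). Neither passed after adjustment, which with 4 against 4 libraries would need more than 3 of the 6 tests at 0.0286, the smallest p they allow.

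The second 71-base exon of P4ha1 held 86.6% ± 0.383 of its pair in MI against 80.3% ± 1.86 in MISham (SD, n = 4; exact permutation p = 0.0286, adjusted p = 0.0857) and 83.9% ± 2.50 in IR against 80.7% ± 3.77 in IRSham (exact p = 0.2). The lowest MI library exceeded the highest MISham library, and the groups overlapped in IR. The Plod2 transcript with the 63-base exon held 89.5% ± 3.77 of its pair in MISham, 92.4% ± 1.58 in MI, 96.4% ± 1.45 in IRSham and 94.3% ± 2.93 in IR (exact p = 0.257 and 0.286, n = 4), so that the differences had opposite signs and the groups overlapped in both comparisons. Leaving out that sham pair (MISham replicates 1 and 3), the MI differences were 33.4 points for the P4ha2 60-base exon, 6.4 for the second P4ha1 exon and 4.85 for the Plod2 exon, with no test.

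The upstream sequences of the 3 prolyl hydroxylase genes are given since these genes differed most in response within 1 family. They are the 250 bases before the start, from RefSeq on GRCm38.p6 (plus strand), where entries were found for 5 of the 10 genes; capitals mark matches on either strand to ACGTG or GCGTG, the cores of the hypoxia response element.
P4ha1, chr10:59323046-59323295: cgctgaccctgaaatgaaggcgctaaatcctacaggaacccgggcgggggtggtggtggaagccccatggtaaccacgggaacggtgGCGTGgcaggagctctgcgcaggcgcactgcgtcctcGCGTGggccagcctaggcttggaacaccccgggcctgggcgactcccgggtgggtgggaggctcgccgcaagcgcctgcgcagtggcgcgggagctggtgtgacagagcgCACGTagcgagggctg
P4ha2, chr11:54100674-54100923: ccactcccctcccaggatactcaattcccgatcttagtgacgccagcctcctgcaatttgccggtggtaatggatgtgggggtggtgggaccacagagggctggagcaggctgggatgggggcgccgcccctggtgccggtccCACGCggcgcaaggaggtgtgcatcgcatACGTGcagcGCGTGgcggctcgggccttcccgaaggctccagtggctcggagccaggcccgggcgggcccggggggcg
P4ha3, chr7:100285270-100285519: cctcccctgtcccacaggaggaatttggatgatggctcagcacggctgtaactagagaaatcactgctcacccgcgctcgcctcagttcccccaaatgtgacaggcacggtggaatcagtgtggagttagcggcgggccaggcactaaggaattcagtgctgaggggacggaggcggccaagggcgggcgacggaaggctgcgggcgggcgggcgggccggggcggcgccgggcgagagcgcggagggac

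The search covered 300 bases, which adds 50 bases after the start. The first motif, ACGTG, was found once upstream of P4ha1, at 2 places for P4ha2 (of which 1 lies after the start) and at none for P4ha3, and 19.6% of all 32851 RefSeq promoters held it. The second, GCGTG, was found at 2 places each for P4ha1 and P4ha2 and at none for P4ha3, and 32.4% of all promoters held it. Of the other entries, Plod1 held the second motif at 2 places, and Plod3 the first at 1 place and the second at 3. TGANTCA, bound by AP-1 (in 7.81% of all promoters), had no match in these 5 windows. Neither had GGAATG, bound by TEAD factors (in 14.7%). A match is a match of letters and not a bound site.

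The log2 fold changes of the lysyl hydroxylases, from 0.15 to 1.64 over both injuries, were all smaller than those of the 4 lysyl oxidases, from 1.84 to 3.65. Plod3, which also acts as a glucosyltransferase on collagen, was the one that changed most. It stood at 73.0, 49.2, 72.2 and 42.6 CPM in MISham and 189.2, 197, 169.2 and 185.6 in MI. It stood at 57.5, 71.5, 68.5 and 79.7 CPM in IRSham and 128.1, 158.6, 160.2 and 160.3 in IR, with replicate 1 lowest in both groups. No injured library overlapped its shams, and all MI libraries lay above all IR libraries. The log2 fold change was 1.64 ± 0.15 in MI (edgeR adjusted p = 1.26e-07) and 1.13 ± 0.15 in IR (adjusted p = 9.2e-06).

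Plod2, which hydroxylates lysines in the ends of the collagen molecule, ran from 39.3 to 66.8 CPM in MISham, 84.8 to 86.5 in MI, 43.4 to 51.2 in IRSham and 61.3 to 78.6 in IR. Its 4 MI libraries had an SD of 0.783 CPM and lay above all IR libraries. It rose by 0.80 ± 0.13 in MI (edgeR adjusted p = 3.55e-05) and by 0.57 ± 0.13 in IR (adjusted p = 0.00117).

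Plod1, the lysyl hydroxylase with the highest mean TPM in each group, was the 1 gene of the 10 whose response differed between the injuries by test. It stood at 181.8, 163.8, 171.2 and 158.3 CPM in MISham, 282.2, 270.2, 260.7 and 270.4 in MI, 200.7, 222.5, 201.2 and 212.7 in IRSham and 211.4, 237.6, 229.3 and 248.3 in IR. MI lay above the 3 other groups without overlap, MISham lay below them, and IR overlapped IRSham. It rose by 0.68 ± 0.07 in MI (edgeR adjusted p = 1.29e-07) and had 0.15 ± 0.07 in IR (adjusted p = 0.0718).

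The difference of the responses was 0.54 ± 0.10 for Plod1 (edgeR adjusted p = 0.0332), the 1 call among the 10 genes, where 0.117% of all genes were called higher, 0.076% lower and 0.192% in either direction. Plod1 was also the 1 gene of the 10 that differed between the sham groups, lower in MISham than in IRSham by -0.31 ± 0.07 (adjusted p = 0.0109), where 0.866% of all genes were lower, 2.34% higher and 3.2% either. All 4 MISham libraries lay below all 4 IRSham libraries for Plod1 alone of the 10 (4.19% of all genes did so, and 4.66% lay above). Between MI and IR themselves the mean levels were 270.9 ± 8.79 and 231.6 ± 15.6 CPM (SD, n = 4). The difference of responses kept its size, between 0.45 and 0.58, when any 1 library was left out, but was not called without MISham replicate 2 or 4, MI replicate 1, 2 or 4, IRSham replicate 2, 3 or 4, or IR replicate 1, and its adjusted p over all alternatives ran from 7.19e-05 to 0.0933. The call between the sham groups was lost without MISham replicate 4 (adjusted p = 0.0514) or IRSham replicate 2 (0.0543), with 0.000293 as the lowest over its alternatives. In IR, Plod1 was called without IR replicate 1 (0.18, adjusted p = 0.0243); its adjusted p there ran from 6.48e-05, with library size alone, to 0.203.

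The other 9 differences of responses ranged from 0.19 ± 0.24 (Loxl1) to 1.00 ± 0.54 (P4ha3), all with a larger estimate in MI and none called by edgeR (adjusted p from 0.128 to 0.757). All 10 share the sham libraries that stood apart. P4ha3 was called without MISham replicate 3 (1.87, adjusted p = 0.0497, in a range from 0.00122 to 0.691). Without MISham replicates 1 and 3, 9 of the 10 were called larger in MI, where 4.46% of all genes tested in that fit were, against 0.117% with all libraries. Lox then had 1.76, Loxl2 1.58 and P4ha3 2.87, and the exception was P4ha2. Without that pair 7 genes were lower in MISham than in IRSham, where 5.55% of all genes were. P4ha3 had -3.09, Lox -1.61 and Loxl2 -0.93, where Loxl2 had 0.01 with all libraries. In direct levels, all MI libraries lay above all IR libraries for P4ha1, Plod1, Plod2, Plod3 and Loxl2 (10.1% of all genes did so), and for none of the 10 below (4.3% of all genes).

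Lox, the founding lysyl oxidase of fibrillar collagen and elastin, was among the genes with the widest spread between sham libraries. It stood at 60.7, 17.3, 97.4 and 29.4 CPM in MISham and 530.9, 468.3, 537.8 and 524.1 in MI. It stood at 49.5, 68.1, 89.5 and 78.5 CPM in IRSham and 374.2, 559.2, 490.8 and 447.8 in IR. The lowest injured library held more than 3 times the level of the highest sham library. It rose by 3.33 ± 0.42 in MI (edgeR adjusted p = 7.25e-06) and by 2.71 ± 0.41 in IR (adjusted p = 5.44e-05), and by 4.47 in MI without MISham replicates 1 and 3.

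Loxl3, a lysyl oxidase known from the development of cartilage and muscle attachments, had larger estimated rises than Lox with all libraries. The standard errors of Loxl3 and Lox overlapped, and no test compared these genes. Without MISham replicates 1 and 3 the order in MI was reversed, with 4.35 for Loxl3 and 4.47 for Lox. The level of Loxl3 was 17.8, 7.96, 30.5 and 13.7 CPM in MISham and 225.7, 253.5, 186.4 and 213.2 in MI. It was 19.7, 26.8, 27.7 and 25.1 CPM in IRSham and 148.8, 207.7, 192.9 and 204.4 in IR. MI and IR libraries overlapped each other and lay above every sham library. The rise was 3.65 ± 0.31 in MI (edgeR adjusted p = 1.35e-07; 12.5-fold) and 2.93 ± 0.30 in IR (adjusted p = 1.39e-06; 7.6-fold). Htra2, on the opposite strand, shares 11.6% of the exonic bases of Loxl3, and Znhit1 11.7% of those of Plod3. Smaller overlaps on the opposite strand were those of Gm38391 with Plod2 (6.42%), Gm27177 with Loxl2 (5.57%) and AC161119.1 with Lox (0.628%). With the strand setting not given in the sources used here, the counts of overlapping genes cannot be separated there.

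Loxl2, which acts on basement membrane collagen, ran from 6.21 to 21.7 CPM in MISham, 72.4 to 81.5 in MI, 8.50 to 14.8 in IRSham and 41.6 to 53.0 in IR, and rose by 2.65 ± 0.32 in MI (edgeR adjusted p = 4.21e-06) and 2.02 ± 0.31 in IR (adjusted p = 6.93e-05). Without MISham replicates 1 and 3 its MI rise was 3.59. Its 2 annotated transcripts were Loxl2-201 and Loxl2-202. Loxl2-201 held 95.3% ± 5.91 of the gene's TPM in MISham, 84.1% ± 0.636 in MI, 83.2% ± 11.9 in IRSham and 81.3% ± 3.31 in IR (SD). Loxl2-202 held 4.65% ± 5.91, 15.9% ± 0.636, 16.8% ± 11.9 and 18.7% ± 3.31. The Loxl2-202 change was 11.29 ± 4.61 points in MI (limma adjusted p = 0.172) and 1.85 ± 4.61 in IR (adjusted p = 0.884). MISham differed from IRSham by -12.18 ± 4.61 points (adjusted p = 0.481). None of these was called.

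Loxl1, known for its part in elastic fibre upkeep, was the most abundant of the 4 by TPM in each sham group. It ran from 70.1 to 148.6 CPM in MISham, 408.4 to 481 in MI, 121.5 to 148.4 in IRSham and 440 to 552.2 in IR. It rose by 2.03 ± 0.18 in MI (edgeR adjusted p = 5.32e-08) and 1.84 ± 0.18 in IR (adjusted p = 2.79e-07). Its 2 responses differed by 0.19 ± 0.24 with all libraries and by 0.65 without MISham replicates 1 and 3 (adjusted p = 0.0254, in a range up to 1).

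Levels can be set side by side between genes as TPM. In MISham the order was Plod1 (40.4 ± 4.23 TPM, SD, n = 4), P4ha2 (38.0 ± 6.52), Loxl1 (24.3 ± 9.17), Plod3 (21.1 ± 6.61), P4ha1 (20 ± 4.19), Plod2 (12.4 ± 2.87), Loxl2 (11.8 ± 8.23), Lox (8.03 ± 6.09), Loxl3 (4.19 ± 1.86) and P4ha3 (0.425 ± 0.393). Each gene overlapped the next in its range over libraries except Loxl3 and P4ha3. In IRSham the order differed from that in MISham only in that Loxl2 (14.7 ± 3.69) stood above Plod2 (13.6 ± 1.47), and these overlapped.

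In MI the lysyl oxidases led the order, with Loxl1 at 163 ± 19.4, Loxl2 at 134 ± 7.52 and Lox at 131 ± 6.51 TPM, followed by Plod1 (107 ± 8.64), Plod3 (103 ± 12.4), Loxl3 (86.2 ± 13.9), P4ha1 (82.6 ± 8.26), P4ha2 (56.8 ± 3.11), Plod2 (33.6 ± 1.28) and P4ha3 (16.5 ± 1.73). Neighbours overlapped in this order from Loxl1 to Lox and from Plod1 to P4ha1. In IR the order was Loxl1 (182 ± 30.8), Lox (119 ± 28.1), Loxl2 (109 ± 22.7), Plod1 (91.6 ± 12.8), Plod3 (84.4 ± 12.5), Loxl3 (70.6 ± 16.3), P4ha1 (54.2 ± 10.1), P4ha2 (46.8 ± 7.88), Plod2 (29.2 ± 5.29) and P4ha3 (19.1 ± 5.61). Loxl1 stood apart from Lox there, and P4ha2 from Plod2; the other neighbours overlapped.

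These orders depend on where the level comes from. The deposited TPM of Loxl2 was 2.5 times the TPM computed from its counts and gene length, where the median over 9558 genes was 0.54 (5th to 95th percentile 0.266 to 1.64); The other members ran from 0.288 (Loxl1) to 0.972 (P4ha2), with Lox at 0.299 and P4ha1 at 0.379. Over all 16 libraries P4ha1 and P4ha2 had the same mean deposited TPM, 44.3, but 117 and 45.6 TPM from counts, so that the place of P4ha2 above P4ha1 in sham hearts turns over with counts per length. Loxl2 had 67.5 deposited TPM and 27 from counts. An unannotated entry antisense to Loxl2 is listed in the count table with 0 counts in each of the 16 libraries. The annotated antisense gene Gm27177 shares 5.57% of the exonic bases of Loxl2. The part of either in that ratio was not tested, and no value here shows which of the 2 levels of Loxl2 is nearer the truth.

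Within each family the makeup by TPM shifted in both injuries. The smallest two-sided exact permutation p with 4 against 4 libraries is 0.0286, and 16 of 20 shares of family TPM reached it (adjusted p = 0.0357 over the 20 tests). The shares of a family add up to the whole, so a gain of any gene is a loss of others and these tests are not separate. They restate the unequal fold changes in the same libraries, and no rate was computed for other gene families. P4ha2 held 65.2% ± 1.39 of the 3 prolyl hydroxylase subunits in MISham and 36.5% ± 3.37 in MI, and 62% ± 1.23 in IRSham and 39.2% ± 5.46 in IR (SD, n = 4). P4ha3 went from 0.673% ± 0.577 to 10.6% ± 0.612 in MI and from 1.95% ± 0.127 to 15.9% ± 3.38 in IR. P4ha1 went from 34.1% ± 1.00 to 52.9% ± 2.76 in MI and from 36.1% ± 1.34 to 45.0% ± 2.98 in IR; with CPM per kilobase, added after seeing the data, the IR difference turned to -2.17 points and was not called (exact permutation adjusted p = 0.235). On that scale P4ha1, not P4ha2, was the largest share in sham: P4ha2 held 38.8% ± 2.37 in MISham and 19.4% ± 2.43 in MI, and P4ha1 60.1% ± 2.30 and 67.2% ± 2.04 (SD, n = 4). The fall of the P4ha2 share and the rise of P4ha3 were called on both scales in both injuries.

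Among the lysyl hydroxylases, Plod3 gained and Plod1 lost share. Plod3 went from 28.0% ± 4.26 in MISham to 42.2% ± 1.29 in MI and from 27.8% ± 1.58 in IRSham to 41.1% ± 0.802 in IR, and Plod1 from 55.3% ± 4.69 to 44.0% ± 0.650 and from 57.3% ± 1.75 to 44.7% ± 1.22 (SD, n = 4). The share of Plod2 differed by -2.84 points in MI and -0.73 in IR and did not pass (exact permutation adjusted p = 0.0672 and 0.361); with a pseudocount of 1 TPM the MI difference was -3.27 and passed (adjusted p = 0.0357).

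Among the lysyl oxidases, Loxl4 included, Loxl1 lost share while Lox and Loxl3 gained. Loxl1 went from 52.5% ± 7.30 to 31.3% ± 1.61 in MI and from 49.1% ± 4.29 to 37.7% ± 3.56 in IR (SD, n = 4). Lox went from 14.8% ± 4.32 to 25.3% ± 2.31 and from 17.2% ± 2.03 to 24.4% ± 1.54, and Loxl3 from 8.86% ± 0.740 to 16.5% ± 1.47 and from 10.5% ± 1.97 to 14.5% ± 1.02. With a pseudocount of 1 TPM the Loxl3 difference in IR was 3.37 points and lost its call (exact permutation adjusted p = 0.0672). Loxl2 differed by 3.30 points in MI and 0.50 in IR and did not pass (exact permutation adjusted p = 0.159 and 0.8). With CPM per kilobase, added after seeing the data, Loxl2 held less of the family. It had 4.24% in MISham, 4.63% in MI, 3.42% in IRSham and 3.05% in IR. Its differences were not called (exact permutation adjusted p = 0.451 and 0.254). Loxl1 then went from 67.9% to 43.8% in MI and from 64.6% to 50.1% in IR. Loxl1, Lox and Loxl3 kept their calls on that scale in both injuries (exact permutation adjusted p = 0.0381). By TPM, Loxl4 held 1.37% or less of the family in each group mean. Leaving out MISham replicates 1 and 3, each MI difference of a family share kept its sign, from -29.7 points for P4ha2 to 19.3 for P4ha1, and that of Loxl2 was 6.16 points, with no test.

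**Figure D4:**
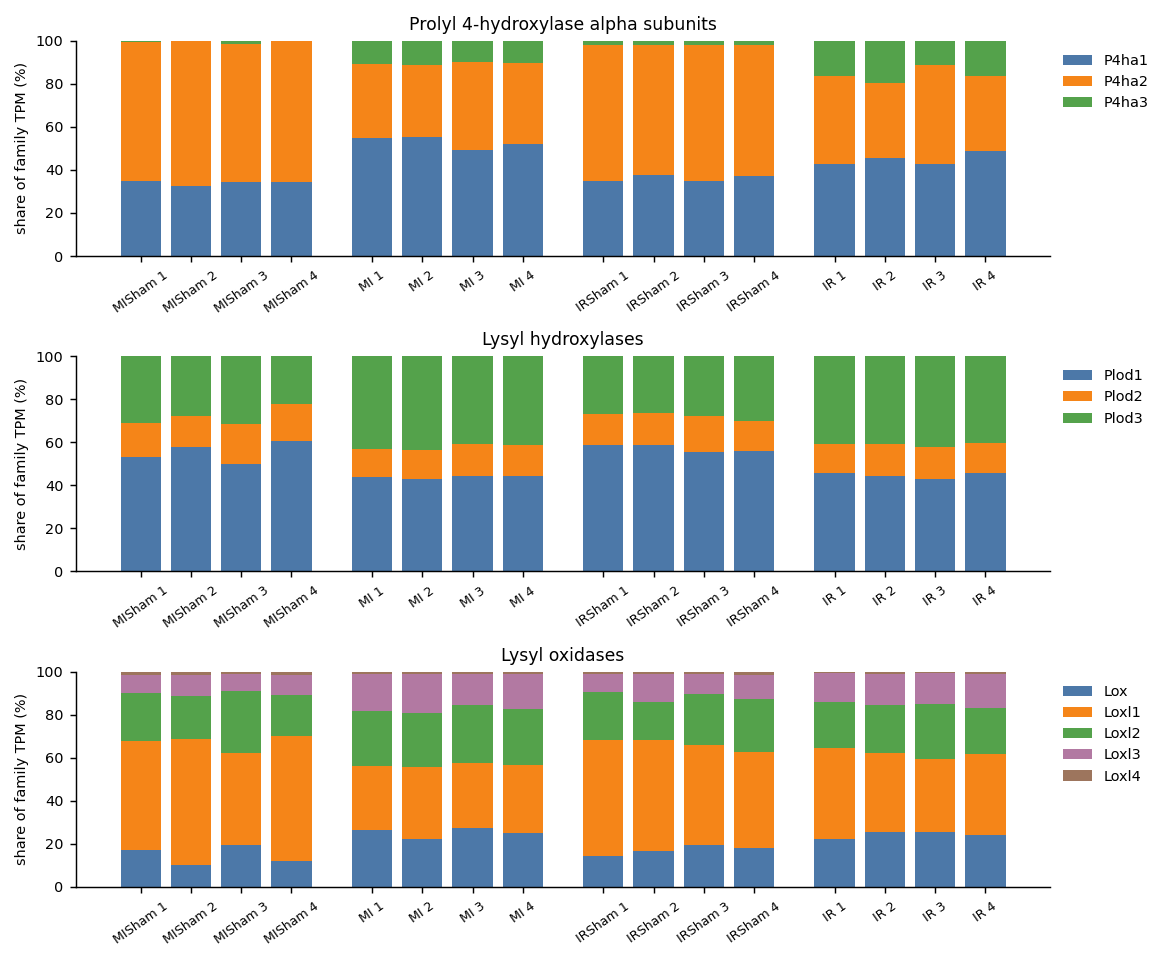
Share of each family's summed TPM held by each of its genes, in percent, as stacked bars for each of the 16 libraries. The P4ha2 share is smaller and the P4ha1 and P4ha3 shares larger in the injured libraries, Plod3 gains on Plod1, and Loxl1 gives way to Lox and Loxl3.

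The enzymes were also set against their substrates, as the log2 ratio of each gene's TPM to the summed TPM of Col1a1, Col1a2 and Col3a1, the main chains of the fibrillar collagens I and III. The genes parted into 2 directions: 15 of 20 ratios passed (two-sided exact permutation p = 0.0286, adjusted p = 0.0381 over the 20 tests), 7 of them higher in injury and 8 lower. Higher were P4ha3 (by 2.61 on the log2 scale in MI and 1.44 in IR), Loxl3 (1.24 and 0.73), Lox (1.16 and 0.76) and, in MI, Loxl2 (0.55). Lower were P4ha2 (-2.62 and -2.23), Plod1 (-1.81 and -1.80), Plod2 (-1.75 and -1.52) and, in IR, P4ha1 (-1.24) and Plod3 (-0.88). The 5 collagen chains listed had a median log2 fold change of 2.57 in MI and 2.21 in IR by edgeR. Over all tested genes it was 0.08 and 0.03, so a gene that did not change would have a lower ratio. The share of all genes with a higher or lower ratio was not counted. With a pseudocount of 1 TPM, 0 of the 20 passed. The lowest adjusted p was then 0.0519, and most sizes were close (P4ha2 -2.63 and Plod1 -1.83 in MI), while Lox had 0.91 and Loxl3 0.91 in MI.

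In units of TPM per 1000 TPM of collagen, Lox stood at 14.5 ± 1.39 in MISham and 32.5 ± 5.21 in MI, and at 15.1 ± 1.45 in IRSham and 25.8 ± 3.60 in IR (SD, n = 4). Its 8 sham libraries lay between 12.6 and 16.8, a narrower spread than that of its CPM. P4ha2 stood at 98.5 ± 55.6 in MISham and 14.1 ± 1.97 in MI, and at 48.3 ± 9.25 and 10.3 ± 2.09 in IRSham and IR. P4ha3 stood at 0.693 ± 0.224 and 4.10 ± 0.645, and at 1.52 ± 0.264 and 4.12 ± 0.743.

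Not passing were P4ha1 in MI (-1.15; exact permutation adjusted p = 0.0714), Plod3 in MI (-0.88; adjusted p = 0.101), Loxl2 in IR (0.29; adjusted p = 0.159) and Loxl1 in both (-0.40 and -0.13; adjusted p = 0.229 for each). With that pair of sham libraries (MISham replicates 1 and 3) left out, each MI difference kept its sign, with -3.32 for P4ha2, -2.59 for Plod1, -1.80 for P4ha1, 1.24 for Lox and 0.87 for Loxl3, with no test. In MISham the ratios of P4ha1, P4ha2, the Plod genes, Loxl1 and Loxl3 were lower in replicates 1 and 3 than in 2 and 4. The ratio of P4ha3 in MI rests on sham values under 1 TPM, and with that pseudocount it was 0.44 (adjusted p = 0.314); by CPM, with or without a correction for length, Loxl2 was not called in MI (0.38, adjusted p = 0.101, and 0.29, adjusted p = 0.222).

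**Figure D5:**
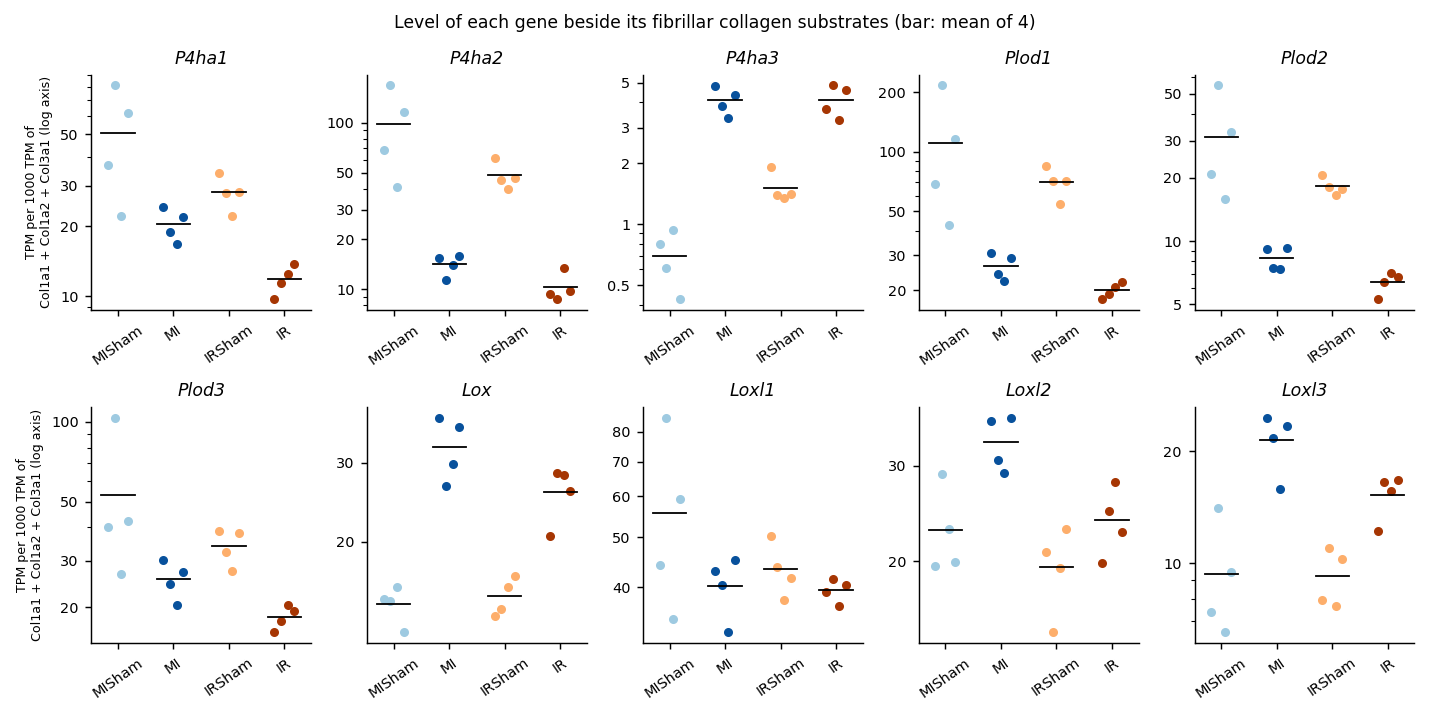
TPM of each gene per 1000 TPM of Col1a1, Col1a2 and Col3a1 in each library, on a log axis, with a bar at the mean of 4. Lox, Loxl3 and P4ha3 lie higher in injured than in sham libraries (Lox 32.5 against 14.5 in MI), P4ha2, Plod1 and Plod2 lie lower, and Loxl1 overlaps.

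The wider collagen pathway rose alongside. Of 34 partners 28 rose and 3 fell in each injury by edgeR's test (34.8% and 30.2% of all genes in MI, 29.5% and 28.2% in IR), with a median log2 fold change of 1.54 in MI and 1.24 in IR. Among 14 partners in the endoplasmic reticulum, 10 rose and 2 fell in MI, and 11 rose and 2 fell in IR. P4hb, the subunit that pairs with each P4ha protein, rose by 1.32 ± 0.10 in MI (adjusted p = 1.16e-08) and 1.13 ± 0.10 in IR (adjusted p = 1.23e-07). Fkbp10 (1.89 in MI, 1.48 in IR), a prolyl isomerase, and Serpinh1 (1.87 and 1.61), the collagen chaperone, rose more. The 2 that fell, named after their values were seen, were Tmem38b, a cation channel of the reticulum (-0.80 and -0.68), and Colgalt2, a collagen galactosyltransferase (-0.72 and -0.79).

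Outside the cell, 9 of 10 partners rose in MI and 8 in IR, and 1 fell in both, Adamts3, a procollagen protease (-0.96 and -0.69; named after its value was seen). Fn1, fibronectin, rose by 3.08 in MI and 2.21 in IR. Fmod, a proteoglycan that binds collagen and Lox, rose by 2.71 and 4.02 from a low level (0.617 ± 0.352 CPM in MISham to 4.09 ± 0.813 in MI, and 0.776 ± 0.425 in IRSham to 12.5 ± 5.64 in IR). Col1a1 rose by 2.64 ± 0.42 and 2.21 ± 0.41, as did the other 4 collagen chains listed. Loxl4, the fifth lysyl oxidase, rose by 2.31 ± 0.27 and 1.83 ± 0.27. Eln, elastin, a substrate of Lox and Loxl1, had -0.06 ± 0.21 in MI (adjusted p = 0.818) and 0.33 ± 0.21 in IR (adjusted p = 0.182), while the other 3 elastic fibre genes of the list rose in both injuries.

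P4ha1, P4ha2 and Plod2 are textbook targets of the hypoxia response, so other such genes were counted. Of 13 hypoxia-inducible genes 5 rose and 4 fell in MI and 4 rose and 5 fell in IR by edgeR's test, where 34.8% and 30.2% of all genes did in MI and 29.5% and 28.2% in IR, so that the counts lie near those of all genes. The median log2 fold change of the list was 0.06 and 0.08. Car9, a carbonic anhydrase, rose by 2.78 in MI and 2.11 in IR, and Egln1, an oxygen sensor, fell (-1.89 and -1.78), as did Vegfa (-1.36 and -1.30). Mean levels were also higher in MI than in MISham for Slc2a1 (79.5 against 24.5 CPM) and Pfkfb3 (52.0 against 16.3), and lower for Pdk1 (116.9 against 274). In IR against IRSham they were 41.2 against 29.2, 43.3 against 23.2 and 106.9 against 259.7 CPM.

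Across the 16 libraries the log2 CPM of the rising genes ran together, as a description that rests mainly on the split of injured from sham: Pearson's r was 0.991 for Loxl3 with Lox and 0.991 for Loxl3 with Loxl1, while P4ha2 had between -0.014 (with P4ha3) and 0.352 (with P4ha1). Among all tested genes the closest to Lox were Tnc, Twist1 and Adam12 (r = 0.996, 0.995 and 0.995), to Loxl3 Tpx2, Birc5 and Vim (0.997, 0.996 and 0.996), and to P4ha3 Olfml2b, Col1a2 and Cenpk (0.994, 0.989 and 0.989). The closest to Plod3 were Tle3, Chaf1b and Flna (0.998, 0.996 and 0.996) and to Loxl1 Rcn3, Fstl1 and Col5a2 (0.996 each). P4ha2 had no such close neighbour, with Dusp5, Slc39a14 and Gm14287 at 0.869, 0.827 and 0.821. All these values are over the same 16 libraries, which also differ in depth and in cell makeup.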

How the data were processed

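Short-read libraries of 4 groups (4 each) were used; 4 long-read libraries were not analysed here. The authors deposited raw counts per gene, and per transcript TPM and 1 column of estimated counts. That last column and the effective length name no sample, so these 2 columns were not used. Tools named per the submitters' processing notes are HISAT2 2.2.1, SAMtools 1.7, featureCounts 2.0.1 and kallisto 0.50.1, with the build GRCm39; their roles and the strand setting are not given in the sources used here.

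The gene table was tested with edgeR 4.0.16 in R 4.3.3 (TMM scaling, filterByExpr with a minimum count of 10 and total of 15, robust quasi-likelihood fit over all 16 libraries, Benjamini-Hochberg adjustment over 19741 genes). TMM assumes that most genes do not change, and 64.9% were called in MI. Transcript shares (percent of annotated TPM) were tested with limma 3.58.1, for genes of at least 5 TPM and transcripts of at least 5% share; a call needed an adjusted p under 0.05 and a change of 10 points. The 23070 transcripts known from long reads alone carry no gene name and enter no share. Family shares and collagen ratios used exact permutation tests (SciPy 1.17.1). Exons came from GENCODE M21, promoters from RefSeq. The scripts were tested on simulated data.

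All 10 genes are named, with at most the 6 largest changes of each partner list, P4hb, Loxl4, Col1a1, Eln and the 3 closest genes of each member. Members, lists and tests were chosen with earlier results of these data known. Alternatives were other scalings and filters, DESeq2 1.42.0, a replicate block and left-out libraries.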

Additional observations from a re-analysis of the deposited data

Results flagged for a closer look

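In 3 of 40 groups of CPM values 1 library stood far from the other 3 (Dixon's test at the 95% level), and in 8 of 96 groups of transcript shares; chance flags about 1 in 20 groups. The CPM values were P4ha2 in IRSham replicate 2 (79.27, highest), P4ha2 in IR replicate 3 (79.5, highest) and Plod3 in IR replicate 1 (128.1, lowest). The shares, in percent of the gene's annotated TPM, were P4ha1-203 in MISham replicate 2 (53.78, lowest), P4ha2-212 in IRSham replicate 1 (16.83, highest), P4ha3-201 in MISham replicate 1 (96.82, lowest, with the other 3 at 100), P4ha3-202 in IRSham replicate 4 (38.65, with the other 3 at 0) and Plod2-201 in MI replicate 3 (8.94, highest). The rest were Plod2-203 in MISham replicate 3 (89.59, highest), Plod2-205 in IRSham replicate 1 (12.84, highest) and Plod3-202 in MISham replicate 4 (16.03, lowest).

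The response of Plod1 differed between the 2 injuries by 0.54 ± 0.10 on the log2 scale (edgeR adjusted p = 0.0332), larger in MI, with all 4 MI libraries above all 4 IR libraries and all 4 MISham libraries below all 4 IRSham libraries.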

How the results depend on the processing

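The count of the 10 genes called in MI was 9 to 9 (9 in each) over the fits that left out 1 library each, and 8 to 9 in IR, 0 to 2 for the difference of responses and 0 to 3 for MISham against IRSham. In the same fits 30 to 32 partners were called in each injury, 9 to 10 hypoxia-inducible genes in MI and 8 to 10 in IR, and member transcripts with a changed share numbered 1 to 2 in MI, 0 to 1 in IR and 0 to 0 for the difference. The second transcript in MI was Plod2-203 without MISham replicate 3 (13.36 points, limma adjusted p = 0.0363, up to 0.51 over its alternatives) or P4ha2-214 without IR replicate 3 (-10.47, adjusted p = 0.0445, up to 0.296), and the further sham differences were those of P4ha3 (-2.09, edgeR adjusted p = 0.00086, in a range from 1.56e-06 to 0.438) and Loxl3 (-0.91, adjusted p = 0.0344, in a range from 0.0034 to 0.744) without MISham replicate 3. Leaving out MISham replicates 1 and 3 gave 9 genes for the difference of responses and 7 for MISham against IRSham, and turned Loxl2 in the latter to -0.93 (edgeR adjusted p = 0.00267, up to 1 over its alternatives). Leaving out IR replicates 1 and 3 gave 2 transcripts in MI. On log2(TPM + 1), 15 of the 24 transcripts tested from these genes were called in MI and 16 in IR. Of all transcripts tested, 47.1% were called higher and 7.82% lower in MI, and 40.1% and 7.44% in IR. With CPM per kilobase, added after seeing the data, the P4ha1 family share in IR turned to -2.17 points. With a pseudocount of 1 TPM, 0 of the 20 collagen ratios passed, against 15, the smallest adjusted p being 0.0519; the sizes stayed close for P4ha2 and the Plod genes, and P4ha3 had 0.44 in MI and 0.59 in IR. With DESeq2, the difference of responses was called for 244 genes higher and 281 lower over all genes, against 23 and 15 with edgeR; the cause was not tested. Leaving out 1 library makes 0.0571 the smallest exact p, so family shares and collagen ratios could not pass then.

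Deviations from the group means correlated between same-numbered injured and sham libraries by -0.056 to 0.051. The best match had the same number for MI replicates 1 and 4 and IR replicates 1 and 2, and another number for the rest. Such small correlations cannot tell whether the numbers pair the libraries. With the replicate block, 0 genes were called for the difference of responses, where Plod1 had 0.53 (adjusted p = 0.0836), and 0 transcripts in IR, where P4ha2-202 had an adjusted p of 0.0512. Depth limits P4ha3 most, since its sham libraries held 3.71 CPM or less.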
